A study of Mus musculus with 12 samples.

Results

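Small RNA was sequenced from mouse oocytes of 2 groups that are both genetically wild type and differ only in ancestry as far as the labels say. In the descendants, the grandfathers lacked Khdc3 and the grandmothers carried the wild type allele (4 libraries). The wild type group descends from wild type ancestors (4 libraries). These 8 of the 12 libraries were chosen by their genotype label. The other 4, from Khdc3-null oocytes, entered the fit only to help estimate the spread. The oocytes of all 12 libraries were picked by hand from ovaries that had not been stimulated. The labels give neither strain nor age, and do not say how many mice stand behind a library, so every p-value here measures the spread between libraries, which may be technical.

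Khdc3 encodes a protein of the subcortical maternal complex, an assembly of the oocyte and early embryo that mothers provide to their offspring. The comparison asks whether the small RNAs of oocytes differ when the allele is normal and only the grandfathers lacked it. A microRNA (miRNA) is cut from a hairpin transcript and pairs with mRNAs through its seed, bases 2 to 8 of the mature strand, so that miRNAs with equal seeds share many targets and are grouped as families. PIWI-interacting RNAs (piRNAs) silence transposons in germ cells. Fragments of tRNA and rRNA are abundant in most small RNA libraries, and tRNA fragments have been studied as carriers of paternal effects.

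Levels are in RPM, reads scaled to a common number of mapped reads per library, and changes as the log2 ratio of RPM + 1 in descendants over wild type. Mapped reads numbered 5576835 to 7640554 in descendant and 4048534 to 7207786 in wild type libraries, so that a count of 0 still allows 0.393 to 0.741 RPM over the 8 libraries. Of 2030 listed features, 1889 reached 1.61 RPM in at least 4 of the 12 libraries and were tested. The table lists no mRNA, so neither Khdc3 nor mRNA markers of the oocyte could be looked at. The miR-290 cluster, which belongs to the oocyte and early embryo, summed to 149 to 185 RPM in descendants and 161 to 213 RPM in wild type.

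No small RNA passed an adjusted p of 0.05 between descendants and wild type. With limma and Benjamini-Hochberg adjustment, 0 of 1889 features (0.0%) were called, and the lowest adjusted p was 0.813. At an unadjusted p under 0.05 there were 77 features (4.08%), of which 34 were higher (1.8% of those tested) and 43 lower (2.28%) in descendants, where 94.45 would be taken if none differed. Limma-voom on the reads called 0 features as well, with 86 at the unadjusted threshold. The descendant and wild type values did not overlap for 52 features (2.75%), 24 of them higher (1.27%) and 28 lower (1.48%). The 95% confidence interval left out a 2-fold change in either direction for 1041 features (55.1%), and for 542 of the 562 features that averaged at least 100 RPM. Smaller changes, and changes of scarce features, were often not detectable with this spread and depth. All features described below are ones that did not pass.

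**Figure D1:**
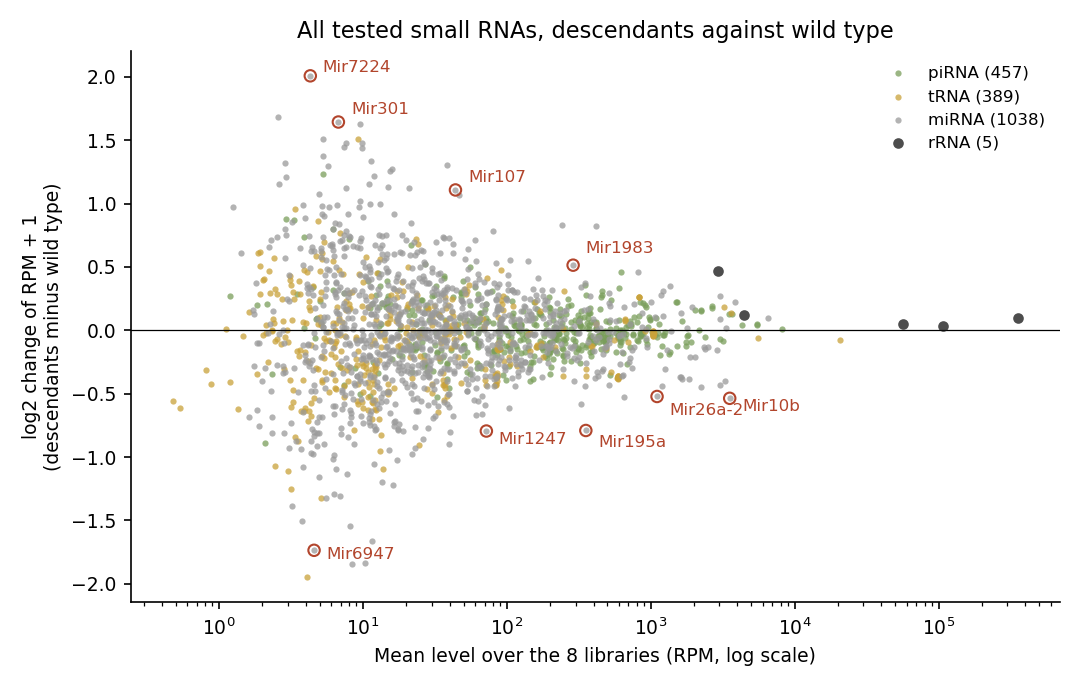
Each point is a tested small RNA, with its mean level over the 8 libraries (RPM, log scale) on the x axis and its log2 change of RPM + 1, descendants minus wild type, on the y axis, coloured by class. The points close in on 0 as abundance grows, and the circled miRNAs, named in the text, include Mir195a at -0.79 and Mir7224 at 2.01; none passed the adjusted threshold.

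The mature sequences of the families described next are shown because their members share a seed while their estimates differed in sign or size. Of 1123 entries listed under miRNA names, 976 matched a RefSeq entry (GRCm38.p6, the assembly of mm10), and 935 of the matched ones were tested. The features listed include 4 named as host transcripts, which are not hairpins. Each sequence is written 5′ to 3′ with the seed in capitals.
miR-26a: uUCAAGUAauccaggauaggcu
miR-26b: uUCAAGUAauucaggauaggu
miR-195a: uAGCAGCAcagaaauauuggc
miR-16: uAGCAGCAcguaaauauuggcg
miR-15b: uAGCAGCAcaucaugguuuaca
miR-497a: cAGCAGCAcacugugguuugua
miR-6342: cAGCAGCAaucuggucuuugag
miR-107: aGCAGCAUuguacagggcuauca
miR-103: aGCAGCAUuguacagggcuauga
miR-301a: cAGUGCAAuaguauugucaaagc
miR-130a: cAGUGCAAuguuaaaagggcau
let-7a: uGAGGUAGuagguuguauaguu
let-7b: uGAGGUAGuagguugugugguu
let-7c: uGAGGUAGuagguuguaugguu
let-7i: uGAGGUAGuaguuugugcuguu
miR-125a: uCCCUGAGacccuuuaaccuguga
miR-125b: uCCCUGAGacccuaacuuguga
miR-10b: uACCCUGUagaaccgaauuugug
miR-17: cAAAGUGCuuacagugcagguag
miR-92a: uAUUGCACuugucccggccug

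The miR-26 family stood lower in descendants at all 3 of its hairpins, and at none of them did the groups overlap, where 1.48% of all tested features were lower without overlap. Its hairpins lie inside 3 genes for small phosphatases of the RNA polymerase II tail: Mir26a-1 in Ctdspl (chr9:119031796-119031885, + strand), Mir26a-2 in Ctdsp2 (chr10:126995530-126995613, + strand) and Mir26b in Ctdsp1 (chr1:74394310-74394394, + strand). Mir26a-1 had 904, 898, 1153 and 1121 RPM in the descendant libraries, against 1270, 1320, 1565 and 1354 RPM in the wild type libraries (log2 change -0.44, SE 0.13). Mir26a-2 had 798, 795, 1055 and 988 RPM in descendants, against 1205, 1211, 1518 and 1272 RPM in wild type (log2 change -0.52, SE 0.13). Every wild type library lay above every descendant library at both hairpins. They give the same mature miR-26a, so their reads cannot be fully assigned and the pair is not independent evidence. Mir26b had 321, 259, 256 and 208 RPM in descendants, against 328, 359, 406 and 464 RPM in wild type (log2 change -0.58, SE 0.19). The gap was narrow here, with the highest descendant library just under the lowest wild type library. The mature miR-26b differs from miR-26a at positions C11U and C21U, counted from 1 at the 5′ end of miR-26a, and is read at a lower level. Summed over the family, descendants held 2464 RPM at most and wild type 2803 RPM at least. The adjusted p was 0.946 at each of the 3 hairpins with limma.

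Mir195a, a member of the cell-cycle-repressing miR-15 family, had the smallest p of all features. It lies between genes at chr11:70235042-70235135 (+ strand). Descendant libraries held 194, 236, 346 and 265 RPM of it, against 399, 354, 552 and 485 RPM in wild type libraries. The groups did not overlap, although descendant library 3 and wild type library 2 came close to each other. The log2 change was -0.79 (SE 0.17, 1.73-fold lower on the RPM + 1 scale), with an adjusted p of 0.813 by limma. In the 4 Khdc3-null libraries, Mir195a averaged 368 ± 25.6 RPM (SD, n = 4).

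Other hairpins with the Mir195a seed did not show the same gap. Mir16-1 had 1554, 2030, 3045 and 2401 RPM in descendants, against 1954, 2289, 2631 and 2821 RPM in wild type (log2 change -0.13, SE 0.18), and its groups overlapped fully. Mir16-2, which gives the same mature miR-16, stood at -0.15 (SE 0.18), Mir322 at -0.13 (SE 0.15), Mir15a at -0.33 (SE 0.31) and Mir195b at -0.37 (SE 0.22). Mir15b was at 0.20 (SE 0.19). Mir497 is transcribed just upstream of Mir195a (chr11:70234717-70234800, + strand). It had 40.7, 29.6, 28 and 45.4 RPM in descendants, against 11.0, 60.7, 27.9 and 34.1 RPM in wild type (log2 change 0.30, SE 0.40), and its wild type values enclosed the descendant ones. Mir497b, annotated over Mir497 on the opposite strand, had 172, 145, 67.1 and 39.3 RPM against 29.7, 73.3, 52.1 and 65.1 RPM in wild type, and since strand-aware counting is not stated, reads of the pair cannot be told apart. Of 11 tested hairpins that carry this seed on either arm, 4 had an estimate above 0 and 7 below, and 3 had an unadjusted p under 0.05 (4.08% of all features). The pair of less studied members at the unadjusted threshold besides Mir195a pointed in opposite directions. Mir6342 had 22.9, 10.9, 14.8 and 15.1 RPM in descendants, against 8.82, 1.08, 6.92 and 9.85 RPM in wild type (log2 change 1.34, SE 0.48), with no overlap. Mir6353, chosen after its values were seen, had 6.81, 17.4, 9.90 and 7.17 RPM in descendants, against 23.6, 15.2, 27.4 and 14.4 RPM in wild type (log2 change -0.94, SE 0.42), where descendant library 2 lay inside the wild type range.

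The closest sequence contrast was between Mir107 and its paralogs Mir103-1 and Mir103-2, which lie in introns of the pantothenate kinase genes Pank1, Pank3 and Pank2, enzymes at the start of coenzyme A synthesis. The mature strands of miR-103 and miR-107 differ only by G22C, counted from the 5′ end. Mir107 (chr19:34820687-34820773, - strand) had 58.1, 41.2, 89.0 and 54.5 RPM in descendants, against 36.2, 19.9, 28.2 and 24.6 RPM in wild type (log2 change 1.11, SE 0.32, adjusted p = 0.946 by limma). All descendant libraries were above all wild type libraries. Mir103-1 had 195, 199, 194 and 144 RPM in descendants, against 208, 160, 207 and 220 RPM in wild type (log2 change -0.12, SE 0.15). Mir103-2 had 111, 121, 161 and 128 RPM in descendants, against 160, 164, 166 and 152 RPM in wild type (log2 change -0.31, SE 0.14). Both Mir103 hairpins overlapped between the groups, and the summed level of the 3 hairpins was 326 to 444 RPM in descendants and 344 to 404 RPM in wild type. How reads that align to several loci were counted is not given in the sources used here, which limits any reading of near-identical members apart from each other.

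Mir301 gave a second contrast inside a seed family. It lies in an intron of Ska2, a kinetochore gene (chr11:87113004-87113089, + strand). Its levels were 11.1, 7.33, 18.1 and 5.92 RPM in descendants, against 2.31, 0.616, 5.68 and 2.91 RPM in wild type (log2 change 1.64, SE 0.48). The lowest descendant library lay only just above the highest wild type library. Mir130a, with the same seed, had 152, 88.5, 140 and 88.6 RPM in descendants, against 142, 131, 119 and 144 RPM in wild type (log2 change -0.23, SE 0.27), and its groups overlapped. Of the 6 tested members of the miR-130 family, 3 were above 0 and 3 below.

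**Figure D2:**
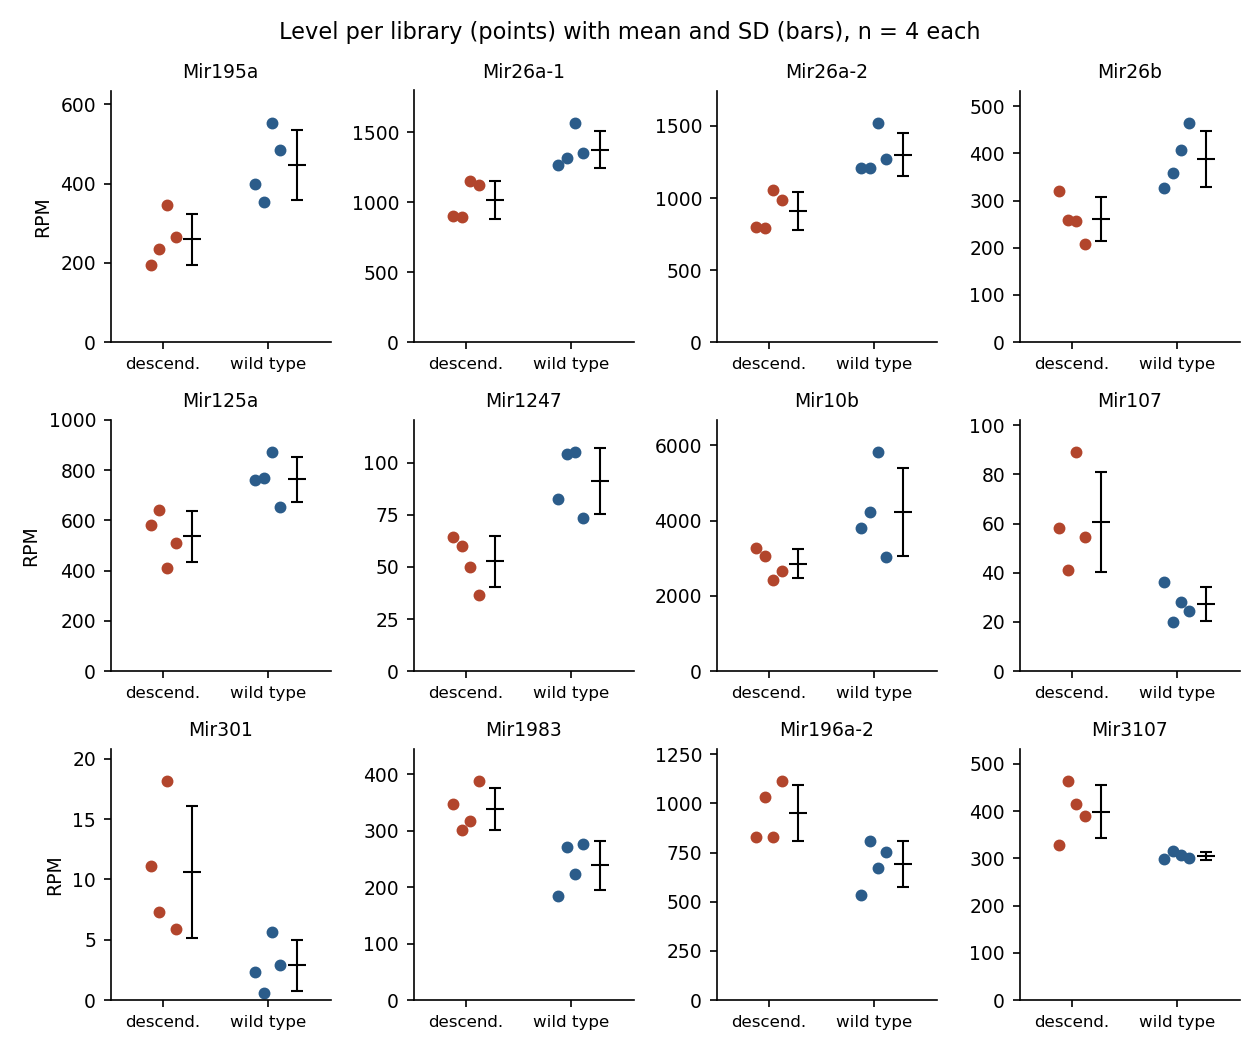
Each panel shows a miRNA hairpin, with its level in RPM on the y axis from 0, descendant libraries (red) left and wild type libraries (blue) right, and the mean with SD as a bar (n = 4 each). The groups do not overlap except for Mir10b, where wild type library 4 at 3032 RPM lies within the descendant range of 2411 to 3261 RPM.

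The let-7 family represses genes of growth and developmental timing, and in the mouse it is spread over many hairpins. Of 14 tested hairpins, 10 had an estimate below 0, 8 of those had an unadjusted p under 0.05, and none was without overlap, for a median log2 change of -0.37. Over all tested features the median was -0.02, with 1022 of 1889 (54.1%) below 0, 2.28% lower at an unadjusted p under 0.05 and 2.75% without overlap. The most abundant hairpin, Mirlet7c-1, had 2438, 2825, 3313 and 2639 RPM in descendants, against 3067, 3874, 4343 and 3541 RPM in wild type (log2 change -0.40, SE 0.16). Mirlet7b had 1466, 2157, 2169 and 1757 RPM in descendants, against 2153, 2759, 2899 and 2435 RPM in wild type (log2 change -0.45, SE 0.17). In both, wild type library 1 lay inside the descendant range and the other wild type libraries above it. Mirlet7a-1, Mirlet7a-2, Mirlet7c-2, Mirlet7d, Mirlet7e, Mirlet7f-1, Mirlet7f-2 and Mirlet7g lay between -0.43 and -0.31. They are not independent readings: let-7a and let-7c differ by A19G alone, let-7a and let-7b by A17G and A19G, and let-7a and let-7f by G12A. The 4 members above 0 were Mirlet7i, Mirlet7j, Mirlet7k and Mir98. Members were taken by name. Matched by the let-7 seed GAGGUAG instead, 12 hairpins were tested, 3 above 0 and 9 below. Mirlet7a-2, Mirlet7j and Mirlet7k were not among those matched. Mirlet7i, whose sequence is farther from let-7a, had 604, 489, 597 and 463 RPM in descendants, against 428, 487, 502 and 614 RPM in wild type (log2 change 0.09, SE 0.13), with full overlap. Leaving out each library in turn moved the family median between -0.49 and -0.26.

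In vertebrate genomes a let-7 hairpin, a miR-99 or miR-100 hairpin and a miR-125 hairpin sit in a row on common transcripts. All 3 such units of the table (Mirlet7c-1 with Mir99a and Mir125b-2, Mirlet7a-2 with Mir100 and Mir125b-1, Mirlet7e with Mir99b and Mir125a) had negative estimates at all 9 hairpins (median -0.39). An unadjusted p under 0.05 was found at 6 of these, as at 2.28% of all features in that direction. The 9 are not independent readings. Mir125b-1 and Mir125b-2 give the same mature miR-125b, and the let-7 members were already counted above. Mir125a (chr17:17830812-17830879, + strand) had 583, 642, 409 and 509 RPM in descendants, against 761, 767, 871 and 654 RPM in wild type (log2 change -0.52, SE 0.18), and was the 1 member whose groups did not overlap (2.75% over all features). Mir125b-1 had 405, 402, 299 and 330 RPM in descendants, against 479, 484, 518 and 379 RPM in wild type (log2 change -0.38, SE 0.14). Mir125b-2 had 385, 351, 213 and 249 RPM in descendants, against 408, 421, 453 and 314 RPM in wild type (log2 change -0.44, SE 0.18). In both, wild type library 4 lay inside the descendant range. Mir99a, Mir100 and Mir99b stood at -0.21 (SE 0.16), -0.13 (SE 0.15) and -0.17 (SE 0.20), so within each unit the miR-99 or miR-100 member was closest to 0. Mir351, which shares the miR-125 seed but lies on the X chromosome, had 715, 660, 694 and 734 RPM in descendants, against 715, 763, 1017 and 666 RPM in wild type (log2 change -0.15, SE 0.13), with overlap.

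Mir10b, from the HoxD cluster (chr2:74726070-74726137, + strand), is related to miR-100 and was among the most abundant hairpins. It had 3261, 3072, 2411 and 2654 RPM in descendants, against 3815, 4223, 5812 and 3032 RPM in wild type (log2 change -0.54, SE 0.17, adjusted p = 0.946 by limma). Wild type library 3 was far above the rest, and the estimate ranged from -0.68 to -0.37 when each library was left out. Mir10a, from the HoxB cluster, had 470, 521, 664 and 575 RPM in descendants, against 640, 671, 968 and 596 RPM in wild type (log2 change -0.35, SE 0.16), again with wild type library 3 highest and with overlap.

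Many of these hairpins are markers of ovarian stroma and vessels, and most of that list stood lower in descendants. Of 15 tested members, 14 were below 0 (median -0.32), against 54.1% of all features. An unadjusted p under 0.05 was found at 5 of those, against 2.28% of all features in that direction. The list repeats Mir10a, Mir10b, Mir99a, Mir100, Mir125b-1 and Mir125b-2 from above, so its counts and sum are not separate evidence. Of its members at the unadjusted threshold, only Mir199b was not already given. The list's sum was 12349, 10898, 12401 and 12311 RPM in descendants, against 13453, 14828, 18177 and 13443 RPM in wild type, and the groups did not overlap. No defining member was at 0. Whether other cells came along with the oocytes was not tested, and in libraries of pooled material fewer cells of a type and less RNA per cell cannot be told apart. Mir199b had 377, 321, 434 and 372 RPM in descendants, against 459, 445, 461 and 563 RPM in wild type (log2 change -0.36, SE 0.16), without overlap. Its relatives Mir199a-1 and Mir199a-2 were at -0.33 (SE 0.17) and -0.32 (SE 0.17). Mir126a, a hairpin of endothelium within Egfl7, had 422, 238, 518 and 619 RPM in descendants, against 443, 604, 602 and 667 RPM in wild type (log2 change -0.43, SE 0.23), where descendant library 2 was lowest and the groups overlapped. Mir143, the smooth muscle hairpin that leads the list together with Mir10b, had 2583, 1951, 3352 and 3229 RPM in descendants, against 2898, 2907, 3483 and 2838 RPM in wild type (log2 change -0.15, SE 0.15). Its partner Mir145a was at -0.22 (SE 0.13) and Mir214 at -0.30 (SE 0.18), both with overlap.

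Markers of other cells gave a mixed picture. Granulosa and follicle hairpins were below 0 at 10 of 13 members with a median of -0.23 (-0.13 without descendant library 2), but their sum of 6579 to 7762 RPM in descendants lay within the 6339 to 8143 RPM of wild type. Their member Mir542, from an X-linked cluster, had 136, 91.5, 134 and 134 RPM in descendants, against 174, 158, 145 and 140 RPM in wild type (log2 change -0.33, SE 0.20), without overlap. Mir202, a hairpin of gonads, had 105, 125, 120 and 77.6 RPM in descendants, against 106, 135, 155 and 139 RPM in wild type (log2 change -0.33, SE 0.19). Red cell hairpins summed to 312 to 458 RPM in descendants and 254 to 373 RPM in wild type, with 3 of 4 above 0. That sum leaves out Mir3107, which is annotated inside the list member Mir486 and is described below. Mir451a, the hairpin of erythroid maturation, had 11.7, 18.5, 43.8 and 12.9 RPM in descendants, against 1.45, 13.7, 5.19 and 19.4 RPM in wild type (log2 change 1.27, SE 0.90), with descendant library 3 highest. White cell hairpins summed to 180 to 252 RPM in descendants and 233 to 252 RPM in wild type, and their members split. Mir142, of all blood lineages, had 40.3, 35.6, 62.3 and 57.0 RPM in descendants, against 30.7, 16.3, 43.0 and 29.4 RPM in wild type (log2 change 0.73, SE 0.35), while Mir150, of lymphocytes, had 16.7, 2.75, 3.69 and 10.8 RPM in descendants, against 22.0, 15.2, 29.4 and 7.91 RPM in wild type (log2 change -1.20, SE 0.52). The part of these cells in the values above was not tested.

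Hairpins of tissues that the ovary lacks were not at 0 either. Their 20 tested members summed to 1572 to 1902 RPM in descendants and 1573 to 1985 RPM in wild type, nearly the same range. Mir133b, a muscle hairpin, had 820, 797, 624 and 665 RPM in descendants, against 731, 738, 743 and 967 RPM in wild type. Mir122a, the main hairpin of liver, had 66.1, 14.8, 54.6 and 92.9 RPM in descendants, against 18.5, 17.4, 11.1 and 33.0 RPM in wild type (log2 change 1.31, SE 1.11). Descendant library 2 sat among the wild type libraries. The error includes the spread of the Khdc3-null libraries, of which library 1 held 1524 RPM and the others 11.5 to 35.2 RPM. Fitted on the 8 compared libraries alone, the SE was 0.50 and the limma adjusted p 0.886.

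**Figure D3:**
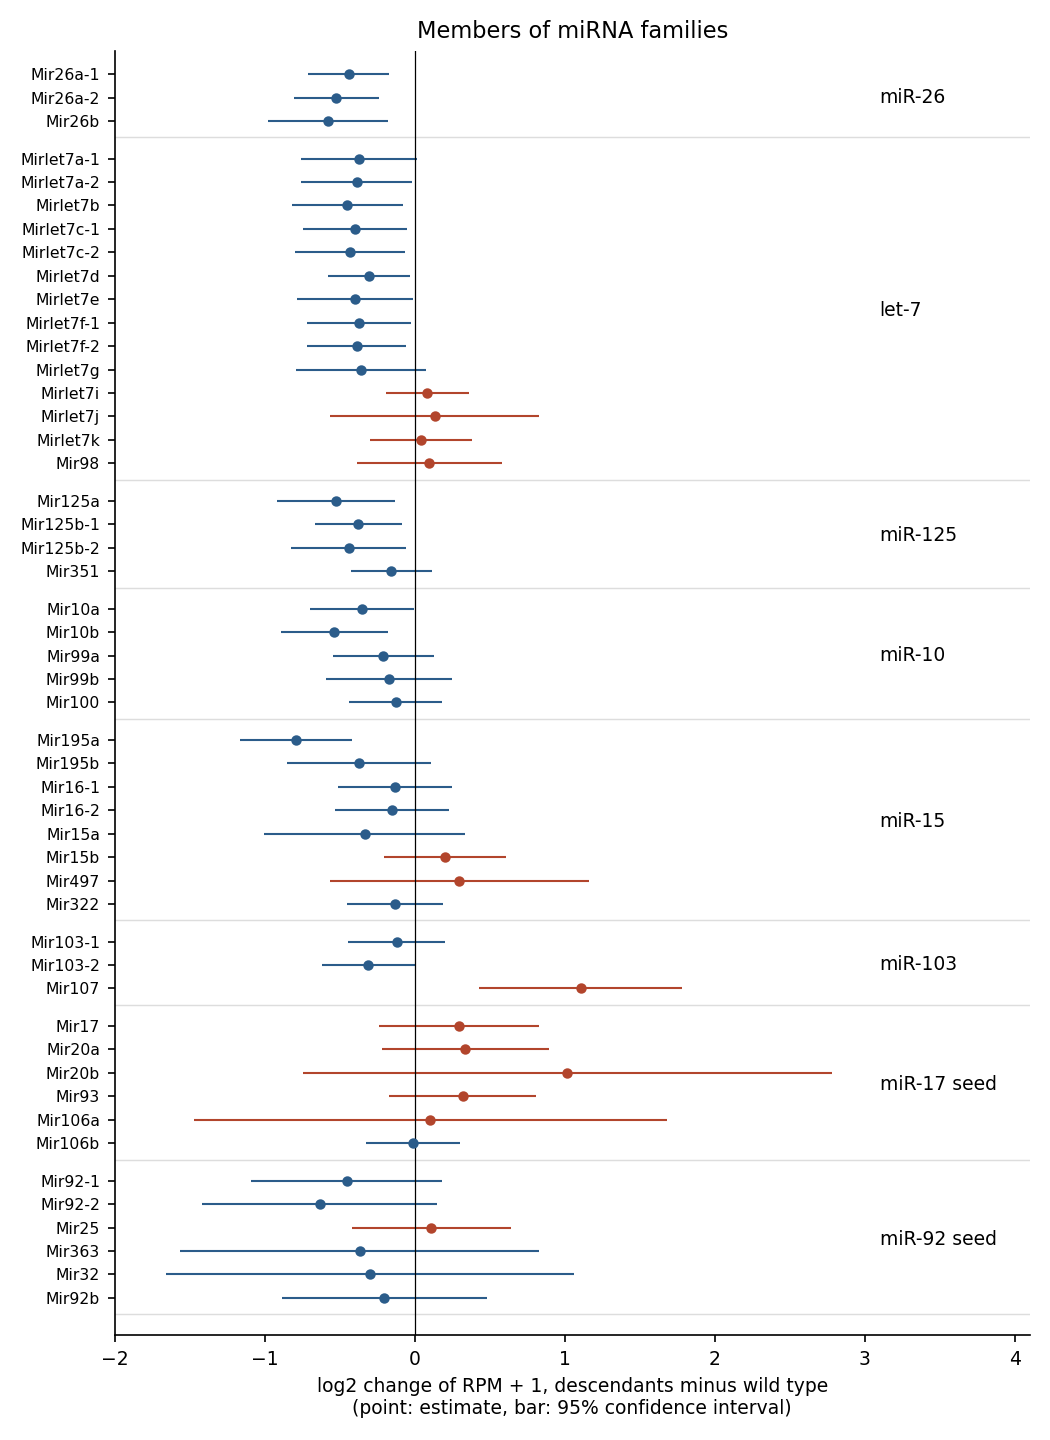
Each row is a miRNA hairpin grouped by family, with the log2 change of RPM + 1, descendants minus wild type, as a point (red above 0, blue below) and its 95% confidence interval as a bar. The miR-26 rows and most let-7 and miR-125 rows lie left of 0, Mir195a lies farthest left of its family at -0.79, and Mir107 lies at 1.11 beside Mir103-1 at -0.12.

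Within the miR-17 to miR-92 transcript, a driver of cell proliferation, the hairpins had estimates on both sides of 0. Its 6 hairpins lie within 1 cluster, and 5 were above 0 while Mir92-1 stood at -0.45 (SE 0.30). Mir17 had 41.4, 77.6, 61.9 and 46.3 RPM in descendants, against 31.8, 48.2, 49.4 and 52.7 RPM in wild type (log2 change 0.30, SE 0.25). Mir92-1 had 11.5, 28.8, 21.3 and 29.2 RPM in descendants, against 26, 28.3, 41.0 and 25.5 RPM in wild type. Both overlapped. Over the genome, 6 of 7 tested hairpins with the miR-17 seed were above 0 (median 0.30), among them Mir20a at 0.34 (SE 0.26) and Mir93 at 0.32 (SE 0.23), and 6 of 7 with the miR-92 seed were below 0 (median -0.37), among them Mir92-2 at -0.63 (SE 0.37). The median of the miR-92 seed was -0.05 without descendant library 3 and -0.58 without descendant library 2, and that of the miR-17 seed 0.20 without descendant library 2. None of the 14 was at the unadjusted threshold. Of the 22 seeds carried by at least 4 tested hairpins, 16 had a median below 0 and 6 above.

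Among the 562 features that averaged at least 100 RPM, 14 did not overlap between the groups, a share close to the 2.75% over all tested features. Of the 14, 5 were higher and 9 lower in descendants. Over all tested features, 1.27% were higher and 1.48% lower without overlap. The 5 higher ones were all annotated as miRNA hairpins. Mir196a-2, a HoxC hairpin that represses Hox genes, had 828, 1031, 830 and 1112 RPM in descendants, against 535, 807, 672 and 754 RPM in wild type (log2 change 0.46, SE 0.20). Mir1983 had 348, 301, 318 and 387 RPM in descendants, against 184, 271, 224 and 276 RPM in wild type (log2 change 0.51, SE 0.16). Mir3107 had 329, 463, 415 and 389 RPM in descendants, against 298, 315, 308 and 300 RPM in wild type (log2 change 0.37, SE 0.14). The wild type libraries lay close together at Mir3107, and the descendants spread more widely. This hairpin is annotated inside Mir486 on the opposite strand (chr8:23142573-23142662, - strand). Mir486, which red cells hold at high levels, had 62.0, 129, 178 and 117 RPM in descendants, against 82.9, 87.0, 81.8 and 82.0 RPM in wild type (log2 change 0.44, SE 0.33), with descendant library 1 lowest of all. Reads of Mir3107 and Mir486 cannot be fully assigned to either, so the pair is not independent evidence. Mir770, inside the maternally expressed Meg3 RNA of the imprinted Dlk1-Dio3 domain, had 186, 199, 206 and 201 RPM in descendants, against 165, 153, 174 and 178 RPM in wild type (log2 change 0.24, SE 0.13). Mir6927 stood at 0.22 (SE 0.13). Of the 9 lower ones, 7 are given above and the piRNA locus 14-qC1-1261.1 below, and the last, Mir6340, was at -0.20 (SE 0.22, or 0.12 on the 8 compared libraries alone).

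Imprinted clusters are of interest because their genes are expressed from 1 parental allele. In the Dlk1-Dio3 cluster 17 of 49 tested hairpins were above 0 and 32 below, with a median of -0.08 (-0.03 without wild type library 1). Mir431, antisense to the paternally expressed Rtl1, had 53.8, 28.5, 58.6 and 74.2 RPM in descendants, against 78.1, 82.2, 96.6 and 69.2 RPM in wild type (log2 change -0.66, SE 0.29), with descendant library 4 inside the wild type range. Mir412 had 18.8, 13.9, 11.9 and 13.8 RPM in descendants, against 8.25, 14.2, 4.20 and 3.88 RPM in wild type (log2 change 1.00, SE 0.43), with overlap at wild type library 2. Mir1247, in the Dio3 antisense transcript at the end of this domain (chr12:110278048-110278129, - strand), had 64.3, 59.9, 50.0 and 36.8 RPM in descendants, against 82.7, 104, 105 and 73.5 RPM in wild type. Its groups did not overlap (log2 change -0.79, SE 0.21, adjusted p = 0.946 by limma). The repeat-rich Sfmbt2 cluster, from a paternally expressed gene, had 16 of its 58 listed hairpins above the filter, 6 with an estimate above 0 and 10 below, for a median of -0.36 (-0.16 without wild type library 2 and -0.55 without wild type library 4). Mir467a-6 had 2.15, 0.916, 6.04 and 5.38 RPM in descendants, against 7.81, 9.85, 10.6 and 7.77 RPM in wild type (log2 change -1.29, SE 0.51), and Mir467a-10, a near copy, was at -1.10 (SE 0.49). Without the filter on low levels the median of the Sfmbt2 cluster was 0.06.

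The miR-34, miR-29 and miR-148 families overlapped between the groups at every tested hairpin. The miR-34 family, active in germ and ciliated cells, was above 0 at 5 of 6 hairpins with a median of 0.33. Its most abundant hairpin, Mir34b, had 1739, 1674, 2950 and 2007 RPM in descendants, against 1899, 1955, 1703 and 1635 RPM in wild type (log2 change 0.18, SE 0.15), with descendant library 3 well above the rest. The miR-29 and miR-148 families, which repress DNA methyltransferases, were below 0 at 5 of 7 hairpins with a median of -0.19. That median was -0.03 without wild type library 2 and -0.32 without descendant library 1. A list of X-linked gonadal hairpins was below 0 at 15 of 25 tested members, with a median of -0.24 (-0.36 to -0.07 leaving out each library). Of these 25, 2 did not overlap and 2 had an unadjusted limma p under 0.05, all lower in descendants. Over all tested features the shares in that direction were 1.48% and 2.28%. The most abundant hairpin of all, Mir3081 in an intron of Boc, had 7313, 7722, 5729 and 6430 RPM in descendants, against 5784, 6752, 6322 and 6428 RPM in wild type (log2 change 0.10, SE 0.10). Mir7665, in an intron of Mapkbp1, had 3137, 3422, 4882 and 5209 RPM in descendants, against 3482, 3838, 3387 and 3238 RPM in wild type (log2 change 0.22, SE 0.17), with 2 descendant libraries below the wild type average and 2 above every wild type library.

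The other features of smallest p were scarce. Mir7224, in an intron of B3galt1, had 9.50, 2.62, 6.88 and 10.4 RPM in descendants, against 0.145, 0.924, 0.247 and 3.75 RPM in wild type (log2 change 2.01, SE 0.56), and wild type library 4 exceeded descendant library 2. Mir6384 lies within Gpc3, which encodes a glypican, and had 5.56, 5.63, 3.19 and 3.59 RPM in descendants, against 1.59, 1.69, 0.988 and 1.11 RPM in wild type (log2 change 1.21, SE 0.39), without overlap. Mir6349 had 3.05, 5.63, 3.69 and 1.97 RPM in descendants, against 13.5, 15.2, 16.3 and 5.69 RPM in wild type (log2 change -1.55, SE 0.50), also without overlap but with its nearest libraries almost touching. Mir6947 stood at -1.74 (SE 0.56), Mir1941 at -0.93 (SE 0.32) and Mir1953 at 0.56 (SE 0.19), each with overlap. Scarce features rest on few reads, since 1 read was worth 0.131 to 0.247 RPM in these libraries.

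Loci of piRNAs differed little between descendants and wild type. Of 457 tested loci, 2 were at the unadjusted threshold (4.08% over all features), both lower in descendants, and the median log2 change was -0.02. The groups did not overlap at 3 loci (2.75% over all features), 2 of them higher and 1 lower in descendants. The locus named after chromosome band 14-qC1 (14-qC1-1261.1) had 397, 486, 485 and 465 RPM in descendants, against 608, 569, 654 and 511 RPM in wild type (log2 change -0.35, SE 0.12), without overlap. The higher ones, chosen after their values were seen, were 1-qC1.3-637.1 at 0.31 (SE 0.19), with 78.4 to 92.5 RPM in descendants and 64.5 to 75.4 RPM in wild type, and 6-qC3-100.6 at 0.39 (SE 0.31). The locus pi-Mafg.1 had 158, 115, 119 and 133 RPM in descendants, against 154, 170, 209 and 154 RPM in wild type (log2 change -0.38, SE 0.18), where descendant library 1 was inside the wild type range. At the most abundant locus, pi-D10Wsu102e.2, the levels were 8241, 9726, 7508 and 7083 RPM in descendants, against 6669, 8222, 9792 and 7737 RPM in wild type (log2 change 0.01, SE 0.13). The next, pi-Lpp.1, was at 0.05 (SE 0.10). Loci named after genes split 123 above 0 to 119 below, and those named by chromosome band 88 to 127.

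None of the 4 class shares passed the exact two-sided permutation test, for which the smallest p of 4 against 4 libraries is 0.0286. Descendant libraries gave 60.7%, 58.6%, 55.1% and 57.2% of their listed reads to rRNA, against 56.0%, 56.2%, 55.6% and 57.0% in wild type (exact p = 0.229). For the miRNA class the shares were 14.7%, 15.1%, 16.5% and 15.5% in descendants, against 15.8%, 16.6%, 17.0% and 16.2% in wild type (exact p = 0.114). Descendant libraries 1 and 2 had the highest rRNA share, and all but descendant library 3 had a lower miRNA share than every wild type library. The tRNA share was 6.50%, 6.74%, 7.56% and 8.18% in descendants, against 8.21%, 7.57%, 6.99% and 7.81% in wild type (exact p = 0.371). The piRNA share was 18.1% to 20.8% in descendants and 19.0% to 20.4% in wild type (exact p = 0.6). The sign of its difference reversed when shares were taken of all mapped reads or of listed reads other than rRNA. The lowest adjusted p over the 4 exact tests was 0.457.

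**Figure D4:**
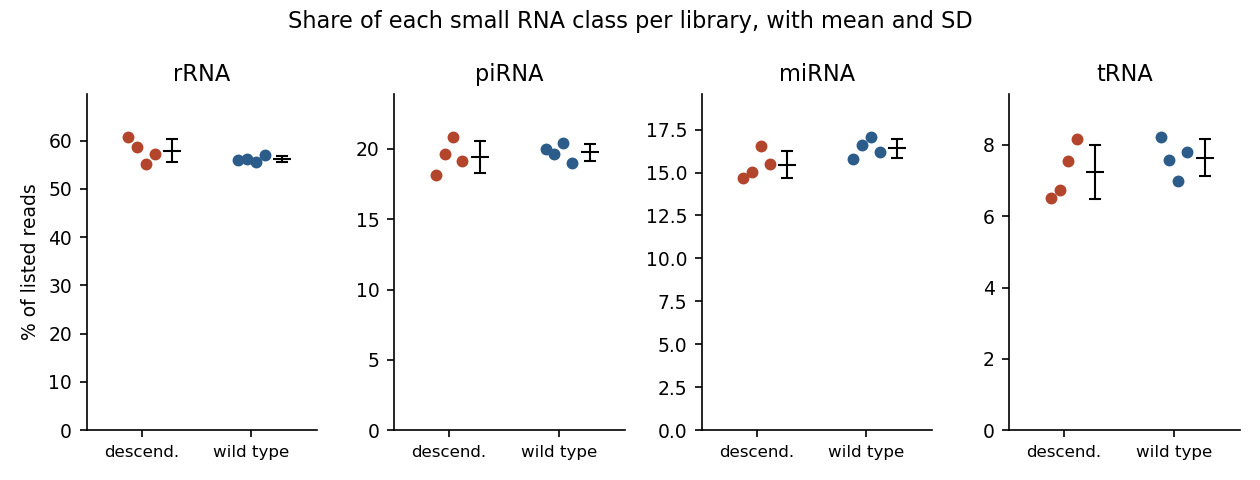
Each panel is a small RNA class, with the percentage of listed reads on the y axis from 0 and the 4 descendant libraries (red) left of the 4 wild type libraries (blue), each with mean and SD. The groups overlap in every panel, and the rRNA share runs from 55.1% to 60.7% in descendants and from 55.6% to 57.0% in wild type.

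All 5 forms of rRNA had estimates above 0, none at the unadjusted threshold. The 45S precursor had 395880, 358416, 342362 and 366634 RPM in descendants, against 330540, 346587, 341678 and 345182 RPM in wild type (log2 change 0.10, SE 0.10). The 5S form had 6163, 2280, 3475 and 2193 RPM in descendants, against 2633, 2131, 2122 and 2464 RPM in wild type (log2 change 0.47, SE 0.26), and rested on descendant library 1, which also had the highest 45S level. The 5.8S, 18S and 28S forms were at 0.12 (SE 0.10), 0.05 (SE 0.09) and 0.03 (SE 0.09). The estimates of 18S and 28S were below 0 when each class was scaled on its own.

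Fragments of tRNA were dominated by a few isotypes (all loci of an amino acid summed), and none of 22 isotype sums passed. Of the sums, 15 were lower and 7 higher in descendants, 0 reached an unadjusted exact p of 0.05, and the lowest adjusted exact p was 0.754. Alanine tRNA, the largest, summed to 18875, 22752, 33319 and 38478 RPM in descendants, against 33435, 29215, 28808 and 23477 RPM in wild type (log2 change -0.07, exact p = 0.83). Descendant libraries 1 and 2 lay below every wild type library and library 4 above every one. The single locus chr13.trna71-AlaAGC carried this pattern, with 12851, 15415, 25156 and 28497 RPM in descendants, against 24684, 20898, 20633 and 16630 RPM in wild type. Glutamate tRNA summed to 5895, 5412, 4103 and 3934 RPM in descendants, against 5251, 5685, 6048 and 7798 RPM in wild type (log2 change -0.36, exact p = 0.171), so its descendant libraries ran in the opposite order to alanine. Methionine tRNA summed to 8601, 9876, 11279 and 11236 RPM in descendants, against 7951, 9755, 8814 and 9422 RPM in wild type (log2 change 0.19, exact p = 0.171), and its most abundant locus, chr15.trna913-MetCAT, was at 0.13 (SE 0.12). Glycine tRNA, studied in sperm as an inherited fragment, summed to 17468, 12401, 11042 and 13164 RPM in descendants, against 15137, 12445, 9467 and 18151 RPM in wild type (log2 change -0.01, exact p = 0.971).

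Scarcer isotypes and single loci of tRNA gave the lowest p of the class. Asparagine tRNA summed to 89.4, 86.8, 88.0 and 92.5 RPM in descendants, against 121, 89.9, 101 and 122 RPM in wild type (log2 change -0.27, exact p = 0.0571, adjusted p = 0.754 over the exact tests). The descendants lay close together, and wild type library 2 lay among them. Tryptophan tRNA summed to 2.87, 2.09, 19.5 and 14.7 RPM in descendants, against 17.2, 9.24, 15.1 and 16.0 RPM in wild type, which split the descendants widely. Over 389 tested loci, 149 were above 0 and 240 below, with a median of -0.08 (-0.03 without descendant library 3 and -0.14 without descendant library 1). The locus chr13.trna65-LeuCAA had 14.5, 5.50, 8.73 and 6.10 RPM in descendants, against 16.3, 14.6, 19.5 and 24.8 RPM in wild type (log2 change -1.09, SE 0.34), without overlap but with library 1 of descendants almost at the level of wild type library 2. The locus chr2.trna263-AlaCGC had 18.5, 12.7, 5.54 and 20.6 RPM in descendants, against 7.52, 3.08, 1.98 and 4.58 RPM in wild type (log2 change 1.51, SE 0.50), with overlap at descendant library 3.

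**Figure D5:**
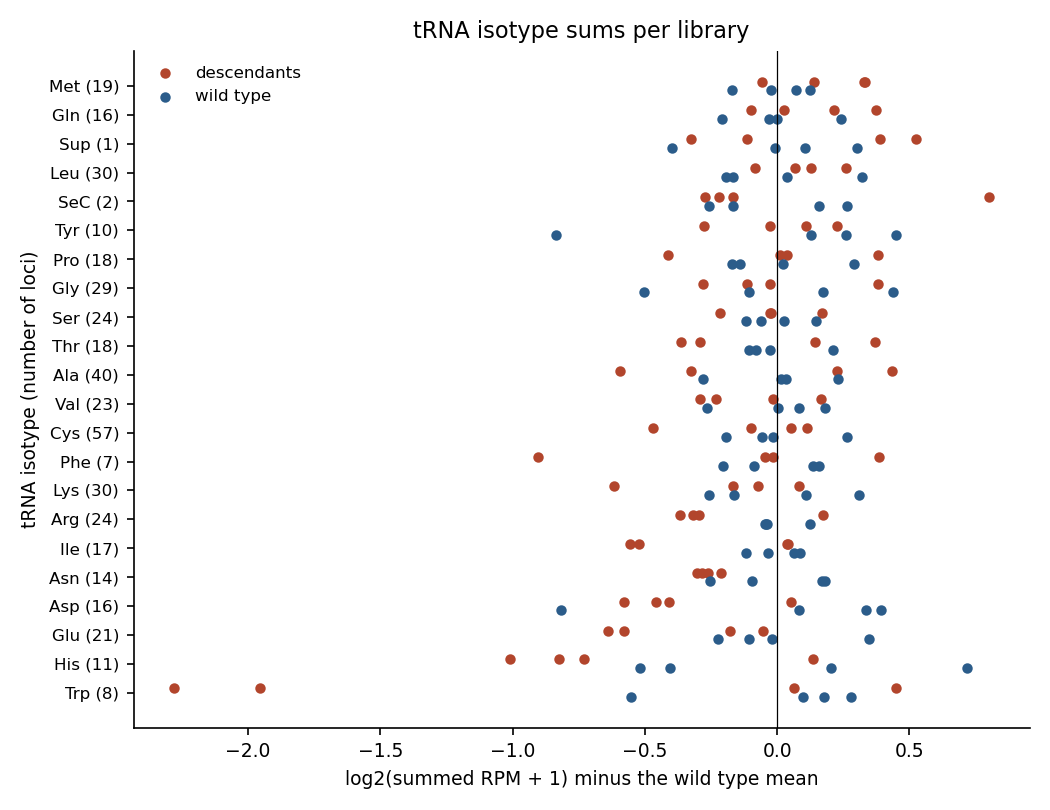
Each row is a tRNA isotype with its number of loci, and the x axis gives log2 of the summed RPM + 1 of each library minus the wild type mean, with descendants (red) above wild type (blue) in each row. The clouds overlap in every row; the sums of Asn lie left of 0 in all 4 descendants, and those of Trp fall into low and high descendants.

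The descendant libraries differed more among themselves than the wild type libraries did. Among 1442 features that averaged at least 10 RPM, the coefficient of variation was larger in descendants for 901 (62.5%), with a median of 23.4% in descendants and 18.9% in wild type. For piRNA loci it was larger in descendants at 287 of 432 (66.4%), with medians of 16.2% and 11.1%, and for miRNA features at 466 of 774 (60.2%), with medians of 29.0% and 24.7%. Leaving out each descendant library in turn, which was added after seeing the data, gave 54.9% to 60.3% over all these features. At piRNA loci the share was 51.2% without descendant library 2, with medians of 13.1% in the 3 remaining descendants and 11.1% in the 4 wild type libraries. At tRNA loci it was 62.3% with all libraries and 51.1% without descendant library 1. Without that library the tRNA median was lower in descendants (19.1%) than in wild type (20.5%). No test was made, since features of a library are not independent. Each library correlated with the other 7 at a median Spearman's rho of 0.944 to 0.958 across features, and no library stood apart.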

How the data were processed

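The deposited table holds RPM values to which the authors added 1, judged from the values, since 0 never occurs and 1 subtracted gives whole multiples of a step per library (100% within 0.01 reads). Alignment used Bowtie2 and mm10, per the submitters' processing notes; its version, trimming, multi-mapping and strand settings are not given in the sources used here. Per the labels' protocols, RNA came from the PicoPure kit and libraries from the NEXTFLEX small RNA kit. The limit for a count of 0 (3 reads) covers counting error only, while confidence intervals of log2 changes come from the spread between libraries.

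After 1 was subtracted, features that reached 1.61 RPM, worth 10 reads at median depth, in 4 or more of 12 libraries were kept: 1038 miRNA, 457 piRNA, 389 tRNA and 5 rRNA features. Limma 3.58.1 (R 4.3.3) with a variance trend was fitted to log2(RPM + 1) of all 12 libraries with 3 group means, and the descendant minus wild type contrast was adjusted by Benjamini-Hochberg over 1889 features. The labels give no batch or pairing. Class shares and tRNA isotype sums were compared by exact two-sided permutation over 70 assignments. The fit was tested on simulated data.

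Features could be named if they were among the 20 of smallest p, the 4 most abundant or any at an unadjusted p under 0.05 in each list, the 5 rRNA forms, the 5 most abundant of each class, or those of 100 RPM or more whose groups did not overlap. Not every feature that met these rules is described. Mir15a, Mir195b, Mir497, Mir497b, Mir6353, Mir20a, Mir92-1, Mir92-2, Mir98, Mirlet7a-1, Mirlet7g, Mirlet7i, Mirlet7j, Mirlet7k, Mir99b, Mir126a, Mir199a-1, Mir199a-2, Mir214, Mir202, Mir122a, pi-Mafg.1, 1-qC1.3-637.1 and 6-qC3-100.6 were named after their values were seen. The members and lists were chosen with earlier results of these data known. Other settings changed the pseudocount, the filter, the scaling, the libraries fitted and the test (limma-voom). The count tests edgeR and DESeq2 were not run, and limma-voom used the reads recovered from the deposited values.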

Additional observations from a re-analysis of the deposited data

Results flagged for a closer look

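In 10 of 246 groups of 4 libraries, a single library lay far from the other 3 relative to the group's range, where chance alone sets apart about 1 in 20 groups. Among descendants, Mir542 was low at 91.5 RPM in library 2 with the next at 134 RPM, so its gap from wild type was widest there. Mir103-1 stood at 144 RPM and Mirlet7k at 101 RPM in descendant library 4, each under the other descendants. Descendant library 1 held 1440 RPM of arginine tRNA, against 1041 RPM in the next descendant, and 66.1 RPM of selenocysteine tRNA, against 33.4 RPM in the next. Among wild type libraries, number 4 was high at Mir199b with 563 RPM, at Mir199a-2 with 604 RPM and at Mir133b with 967 RPM. Wild type library 3 held 3483 RPM of Mir143, and wild type library 1 held 1393 RPM of arginine tRNA.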

How the results depend on the processing

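In all 19 other settings tried, limma or limma-voom again called 0 small RNAs, with 53 to 104 at the unadjusted threshold. Leaving out each library in turn, the features higher at that threshold numbered 25 to 56, with 56 without descendant library 2, and the lower ones 28 to 55, with 28 without wild type library 3. Of 97 named features, 85 kept the sign of their estimate in every setting that gave them a value, and none passed, with a lowest adjusted p of 0.109; 6 scarce hairpins had no value under the filter of 10 RPM.

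The other 12 changed sign in at least 1 setting. Scaled within each class, 28S was at -0.0514, 18S at -0.0302 and pi-D10Wsu102e.2 at -0.0055. With sample quality weights, Mirlet7k was at -0.0151, pi-D10Wsu102e.2 at -0.0364 and chr13.trna71-AlaAGC at 0.002. Leaving out each library in turn gave -0.0796 to 0.275 for Mir98, -0.0138 to 0.130 for Mirlet7k, -0.311 to 0.0153 for Mir16-2, -0.289 to 0.0339 for Mir16-1, -0.134 to 0.654 for Mir497, -0.253 to 0.0068 for Mir143, -0.264 to 0.119 for chr13.trna71-AlaAGC, -0.0799 to 0.105 for pi-D10Wsu102e.2, -0.0058 to 0.0894 for pi-Lpp.1 and -0.0649 to 0.426 for Mirlet7j. The difference in piRNA share, descendants minus wild type, was -0.342 percentage points of listed reads. Its sign reversed to 0.190 percentage points as a share of all mapped reads and 1.02 among listed reads other than rRNA. Leaving out each library in turn gave -0.810 to 0.0840. The causes were not tested.

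No paired analysis was possible because the labels carry no replicate numbers or shared animals. The tests for count tables, edgeR and DESeq2, were not run. The confidence interval's half-width, which holds depth and other spread between libraries, had a median of 0.67 on the log2 scale over all features and 0.35 over those of at least 100 RPM.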
